A study of Mus musculus with 4 samples.

Results

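The matrix metalloprotease (Mmp), ADAMTS (Adamts) and tissue inhibitor of metalloprotease (Timp) genes were taken as every gene whose symbol is Mmp, Adamts or Timp followed by a number and at most a letter. This gave 45 of the 32286 genes in the files, namely 22 Mmp, 19 Adamts and 4 Timp genes. They were followed in mouse lungs taken on day 14 after intratracheal bleomycin (0.8 U/kg), from 2 WT and 2 Tubb3-/- littermates aged 8 to 11 weeks. The paper used both sexes outside its hydroxyproline assay, and the sex of each of these mice is not given in the sources used here. All 4 mice had received bleomycin, so no uninjured lung is compared here. The Tubb3-/- mice were homozygous for a Tubb3-Cre knock-in, in which Cre sits in frame at the translation start of Tubb3. Each mouse gave whole lung cells, depleted of TER-119+ red cells, and mesenchymal cells, depleted with antibodies to CD31, CD45, EpCAM and TER-119. The cells were tagged by mouse, and the tagged cells of all 4 mice were pooled by kind before sorting. The whole-cell pool was sorted for live cells. The mural cell-enriched pool was mixed 1:1 from sorted MCAM+ PDGFRα- and MCAM- cells. A library below is the part of a pool with the tag of a given mouse, so both genotypes shared each pool.

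Metalloproteases of these families are zinc enzymes that cut proteins of the extracellular matrix and the cell surface, and most are made as inactive precursors. MMPs are grouped by their substrates (collagenases, gelatinases, stromelysins) or by their anchorage in the membrane, whereas ADAMTS enzymes are secreted and cut proteoglycans such as versican, the ends of procollagens or other matrix proteins. TIMPs bind the active site of the enzymes and block it, and in fibrotic lungs enzymes and inhibitors are made by fibroblasts and macrophages among other cells.

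UMIs, counts of distinct captured transcripts, were summed per mouse over 6 lineages. A cell entered a lineage with at least 1 UMI of Ptprc (immune), Cdh5 (endothelial), Epcam (epithelial), Msln (mesothelial), Higd1b or Myh11 (mural) or Pdgfra (fibroblast), and with none of another lineage. Of 32121 cells, 30860 passed the limits on cells and 15649 of these (50.7%) fell into exactly 1 lineage. They comprised 4389 immune, 2282 endothelial, 321 epithelial, 324 mesothelial, 4541 mural and 3792 fibroblast cells, while 14442 cells (46.8%) carried markers of several lineages and were dropped. Marker lists that the rule did not use led in 96.9% of the endothelial, 94.2% of the immune, 93.5% of the epithelial, 89.3% of the fibroblast and 83.0% of the mural cells. In the mesothelial cells their own list led in 59.0%, and 5 fibroblast genes (Col1a1, Col1a2, Col3a1, Dcn, Lum) stood there at 32.4% to 115% of their fibroblast level, so these cells are called Msln+ cells below. The same 5 genes stood at 23.8% to 89.3% of their fibroblast level in mural cells and at 2.18% to 10.7% in immune, endothelial and epithelial cells. Of the cells led by the fibroblast list, 3385 were kept as fibroblasts and 5509 were dropped for markers of several lineages. Myh11 had a UMI in 45.9% and Msln in 17.5% of the cells led by this list. Myh11 was also found in 13.4% to 49.4% of the cells led by the other non-mural lists. The fibroblast sums thus rest on the smaller part, without such UMIs. Whether the dropped cells were mixed cells was not tested. Libraries held 3202 to 5051 cells and 41462258 to 95036340 UMIs, and Tubb3, the targeted gene, was at 0.868 to 5.49 CPM (UMIs per 1000000 of the sum) in WT and 0.262 to 0.789 CPM in Tubb3-/- libraries. No cell barcode was shared within a pool of libraries, which the split of a pool by tag fixes in advance. In the other pool, 8 to 26 of a library's barcodes also occurred.

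Levels below are CPM in the order WT 1, WT 2, Tubb3-/- 1 and Tubb3-/- 2, and a mean ± SD is over the 4 mice (n = 4). CPM counts the 3′ ends of transcripts and is not divided by transcript length, so a gene is compared between cells and not with other genes. All 45 genes had UMIs, and 32 reached a mean of 10 CPM in at least 1 lineage. Of these 32, fibroblasts held the highest level for 12, mural cells for 7, immune cells for 6, Msln+ cells for 3, and endothelial and epithelial cells for 2 each. For 21 of the 32 the lowest mouse of the leading lineage lay above the highest mouse of the next one. The same counts were not taken over all genes. A gene enters the 32 through its highest lineage, so these counts only describe the members. The genes that reached 10 CPM in a single lineage were 9 (Mmp8, Mmp9, Mmp12, Mmp17, Mmp25, Mmp28, Adamts19, Adamts20 and Timp4), and 10 genes did so in 5 or 6 lineages. In immune, endothelial and epithelial cells, Mmp2 stood at 2.68% to 4.21% and Mmp3 at 2.01% to 3.89% of their fibroblast level. The 5 fibroblast genes stood there at 2.18% to 10.7%, and Mmp14 at 12.2% to 20.4%. What part of such levels came from fibroblast RNA was not tested.

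**Figure D1:**
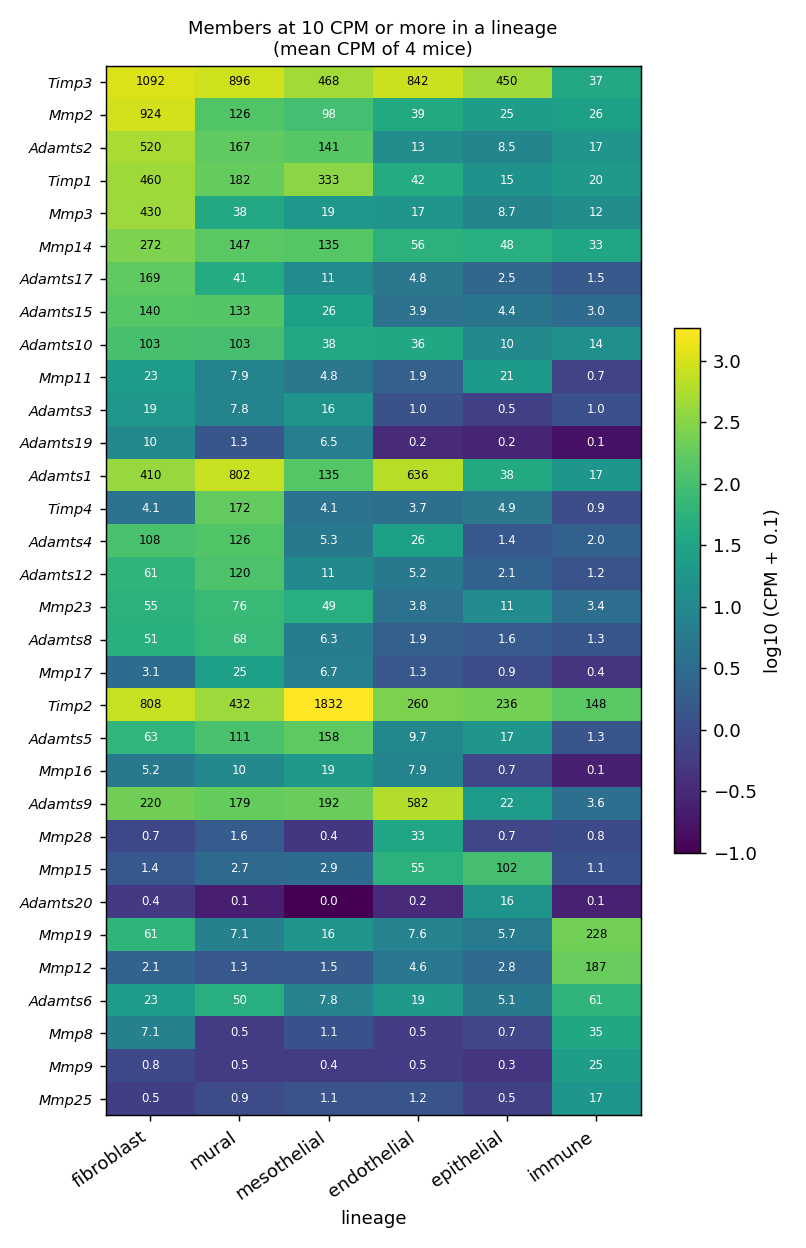
Mean level (CPM over the 4 mice, colour on a log10 scale of CPM + 0.1, means printed in the cells) of the 32 genes with at least 10 CPM in a lineage (rows) in the 6 lineages (columns). Most Adamts rows are filled in both the fibroblast and the mural column, whereas Timp4 stands in mural cells at 172 CPM and Mmp12 in immune cells at 187 CPM.

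A run of 9 Mmp genes lies within 427 kb of chromosome 9 (mm10, chr9:7272514-7699585), in the order Mmp13, Mmp12, Mmp1b, Mmp3, Mmp10, Mmp8, Mmp27, Mmp20 and Mmp7. Neighbours in this cluster differed in the lineage that carried them. Mmp3 led in fibroblasts (430.1 CPM), Mmp12 and Mmp8 led in immune cells (187 and 34.8 CPM), and the remaining 6 stayed between 0.0919 and 2.65 CPM in their leading lineage. The 250 bases before the RefSeq transcript start (GRCm38.p6) are shown for 5 of the 9, the 3 with the highest levels and 2 scarce ones, because they differ in a motif. Capitals mark TGANTCA, the core motif bound by AP-1 factors, searched on both strands.

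Mmp3, chr9:7445572-7445821, + strand: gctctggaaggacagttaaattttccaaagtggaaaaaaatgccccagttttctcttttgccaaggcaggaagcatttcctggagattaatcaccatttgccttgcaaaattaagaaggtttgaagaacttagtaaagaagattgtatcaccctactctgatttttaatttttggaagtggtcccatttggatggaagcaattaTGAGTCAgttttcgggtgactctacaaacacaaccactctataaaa

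Mmp10, chr9:7502092-7502341, + strand: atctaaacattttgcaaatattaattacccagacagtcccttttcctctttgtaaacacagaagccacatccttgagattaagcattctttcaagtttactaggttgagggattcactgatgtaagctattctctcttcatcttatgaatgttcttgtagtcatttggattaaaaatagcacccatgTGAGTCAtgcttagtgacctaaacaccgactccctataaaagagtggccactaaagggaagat

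Mmp13, chr9:7272264-7272513, + strand: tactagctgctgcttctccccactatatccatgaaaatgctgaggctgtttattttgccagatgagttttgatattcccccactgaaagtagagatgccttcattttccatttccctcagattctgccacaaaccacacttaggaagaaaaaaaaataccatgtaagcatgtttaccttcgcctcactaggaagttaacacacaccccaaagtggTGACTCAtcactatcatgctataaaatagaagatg

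Mmp12, chr9:7344147-7344396, + strand: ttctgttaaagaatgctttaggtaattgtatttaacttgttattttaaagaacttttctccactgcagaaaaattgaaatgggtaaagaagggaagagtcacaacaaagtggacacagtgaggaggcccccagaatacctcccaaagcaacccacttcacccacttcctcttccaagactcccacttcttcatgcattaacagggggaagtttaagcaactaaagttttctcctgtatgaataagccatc

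Mmp8, chr9:7558179-7558428, + strand: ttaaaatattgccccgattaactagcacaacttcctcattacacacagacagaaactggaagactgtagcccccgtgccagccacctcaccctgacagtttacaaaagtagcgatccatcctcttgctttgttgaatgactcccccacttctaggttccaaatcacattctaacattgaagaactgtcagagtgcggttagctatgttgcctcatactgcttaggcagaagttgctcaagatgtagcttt

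Of the 31 members with a listed promoter, 6 held this motif (19.4%, against 6.87% of 27025 promoters of the same length), and these were Mmp13, Mmp1b, Mmp3, Mmp10, Mmp20 and Mmp7, all in the cluster. The motif lay 29 bases before the start in Mmp13, 40 in Mmp3 and 57 in Mmp10. Mmp3 with a match stood at 430.1 CPM in fibroblasts and Mmp10 with a match at 2.05 CPM, and the windows of Mmp12 and Mmp8 held no match. The letters AGGAAG, the core bound by ETS factors, were in 13 of 31 promoters (41.9%, against 29.2%) and share no stretch with the AP-1 letters.

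The lineages were compared with edgeR, each with the mean of the other 5 on the log2 scale and with the mouse as a term, and a gene was called at an adjusted p under 0.05 (Benjamini-Hochberg over 16365 genes) and a difference of at least 2-fold. The lineages come from the same 4 mice, so these comparisons are not independent of each other. The ± after a log2 difference is a standard error, taken as the size of the difference divided by the square root of the edgeR F statistic. Of the 36 members tested, fibroblasts had 27 higher and 1 lower (15.8% and 12.3% of all genes), the lower one being Mmp15, and mural cells had 20 higher and 4 lower (14.7% and 13% of all genes). Among the 16 Adamts genes tested, 14 were higher in fibroblasts and 14 in mural cells. Immune cells had 8 higher and 25 lower (20% and 23.4% of all genes), endothelial cells 6 higher and 20 lower (14.6% and 16.8% of all genes) and epithelial cells 3 higher and 21 lower (17.7% and 14.5% of all genes). Msln+ cells had 10 higher and 3 lower (11.9% and 7.7% of all genes). The median log2 difference of the members was 2.06 in fibroblasts, 1.39 in mural cells and -1.95 in immune cells, against 0.00980, -0.00240 and -0.0402 over all genes tested. The other 9 genes (Adamts13, Adamts16, Adamts18, Mmp1b, Mmp7, Mmp10, Mmp20, Mmp21 and Mmp24), with 12 to 641 UMIs each over all cells, were too low to be tested.

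Among the gelatinases, which cut denatured collagen and the collagen of basement membranes, Mmp2 was found at 1002, 867, 915 and 913 CPM in fibroblasts (924 ± 56.1) and at 114, 114, 137 and 138 CPM in mural cells. Fibroblasts were higher than the other lineages (log2 difference 4.40 ± 0.09, edgeR adjusted p = 7.99e-20). The level in immune, endothelial and epithelial cells was 2.68% to 4.21% of that in fibroblasts. Mmp9, the other gelatinase, was at 21.8, 40.5, 13.7 and 22.3 CPM in immune cells and at 0.146 to 1.21 CPM in fibroblasts, the next lineage (log2 difference 5.66 ± 0.34, edgeR adjusted p = 1.28e-12). For both genes the leading lineage did not overlap the next in any mouse.

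Immune cells were divided by markers of which a cell carried at least 1 UMI, and none of another class. Mmp9 was at 519, 562, 347 and 599.5 CPM in Cxcr2+ cells (a neutrophil receptor), against means of 0.571 to 8.01 CPM in the other 4 classes. Mmp8, the neutrophil collagenase, was likewise highest in Cxcr2+ cells (131, 253, 179 and 362 CPM), but cells with Siglecf or Marco, markers of alveolar macrophages, held 39.9, 47.8, 55.0 and 92.9 CPM. The Cxcr2+ class rests on 47 to 81 cells per mouse. Mmp25, the leukocyte membrane-type enzyme, was at 26.2, 23.8, 38.2 and 69.7 CPM in Cxcr2+ cells and at 8.55, 22.7, 15.3 and 23.2 CPM in cells with Cd3e or Cd3g (T cells).

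Mmp12, the macrophage elastase, stood at 77.3, 47.7, 226 and 395 CPM in immune cells and at 3.75 to 5.53 CPM in endothelial cells, the next lineage (log2 difference 6.30 ± 0.26, edgeR adjusted p = 1.41e-15), and its exons overlap Mmp1b on the other strand. Csf1r+ cells, which lack the other class markers and include monocytes and macrophages, held 227, 93.4, 518 and 1269 CPM and Siglecf+ or Marco+ cells 134, 91.5, 259 and 267 CPM, while the neutrophil, T and B cell classes had means of 5.58 to 9.07 CPM. Mmp19, an enzyme of broad specificity, was higher in Siglecf+ or Marco+ cells (524, 554, 371 and 381 CPM) than in Csf1r+ cells (375, 167, 278 and 357 CPM) of the same mouse in 4 of 4 mice, although the ranges overlap. Fibroblasts had 57.0 to 65.1 CPM of Mmp19.

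Adamts6 and Adamts14 were the ADAMTS genes called higher in immune cells. Adamts6, which acts on fibrillin microfibrils, reached 168, 133, 153 and 152 CPM in T cells and 173, 147, 165 and 117 CPM in cells with Cd79a or Ms4a1 (B cells), whereas the myeloid classes had means of 7.91 to 28.3 CPM. It was also present in mural cells (40.7, 39.8, 54.2 and 63.9 CPM), whose range overlapped that of the summed immune cells (55.1 to 71.1 CPM). Adamts14, a procollagen N-proteinase, stayed at 5.36 to 12.9 CPM in immune and 7.76 to 11.3 CPM in mural cells.

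**Figure D2:**
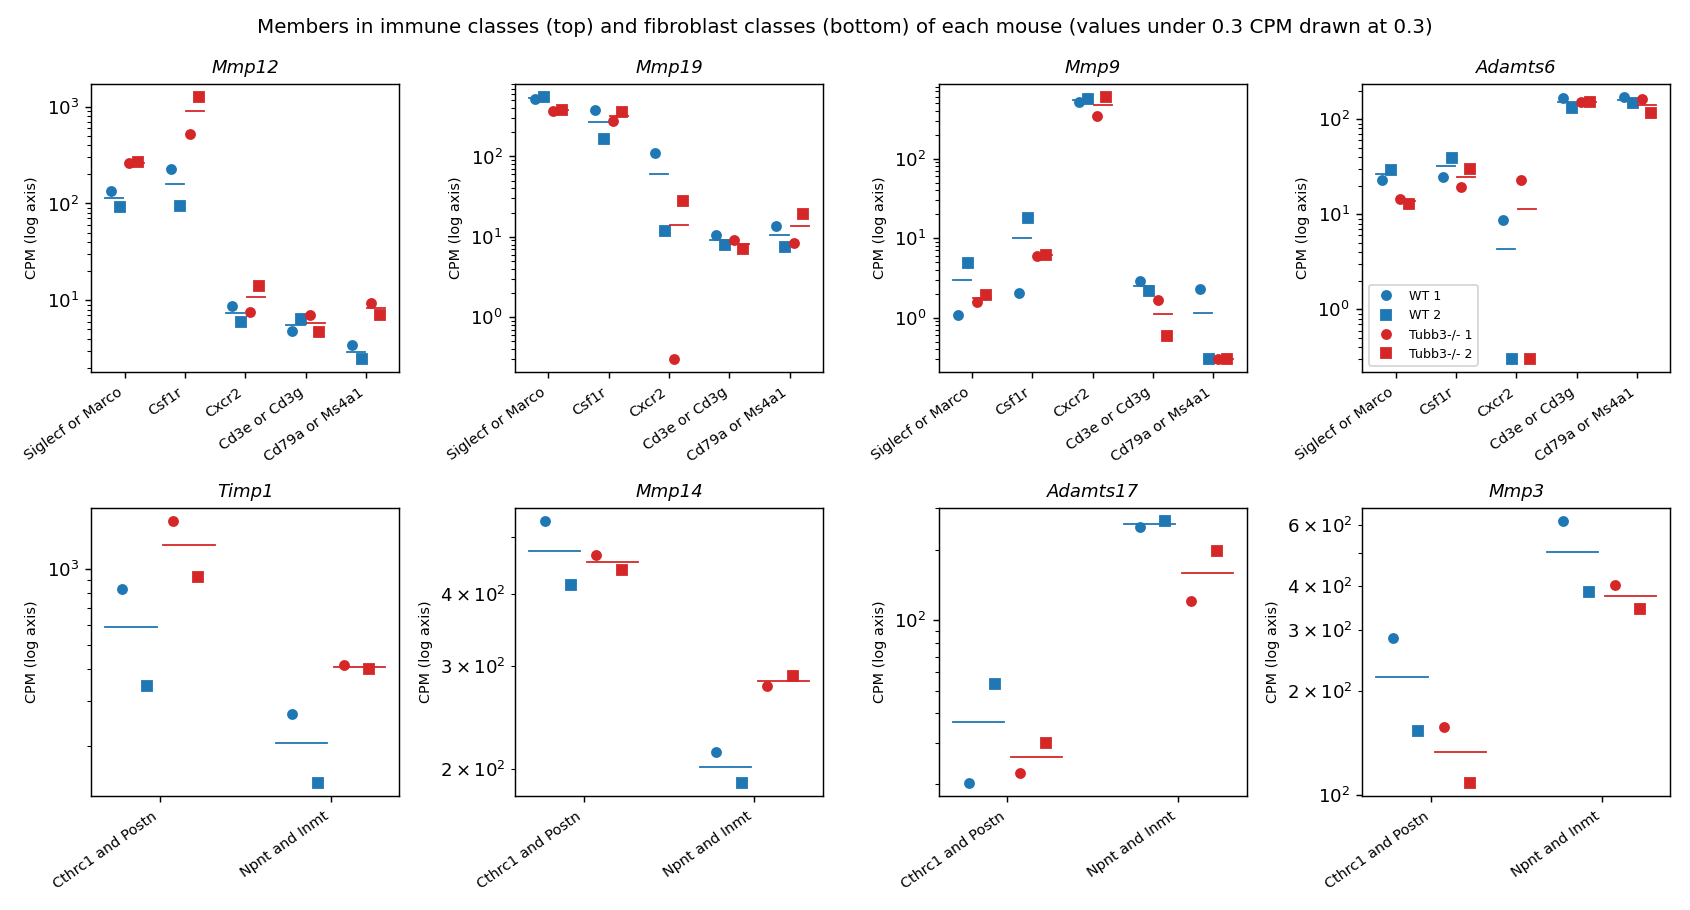
Level (CPM, log axis) of 4 genes in the immune classes and 4 genes in the fibroblast classes, with a point for each of the 2 WT and 2 Tubb3-/- mice and a line at each genotype's mean. Mmp9 stands apart in Cxcr2+ cells (347 to 599.5 CPM) and Adamts6 in T cells (133 to 168 CPM) and B cells (117 to 173 CPM), and Timp1 is higher in fibroblasts with Cthrc1 and Postn (344 to 1550 CPM) than in those with Npnt and Inmt (142 to 418 CPM) of the same mouse.

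Of the stromelysins and collagenases, Mmp3 stood at 625, 386, 367 and 343 CPM in fibroblasts (430.1 ± 131). The enzyme cuts proteoglycans, fibronectin and the precursors of other MMPs, and the gene was at 31.0 to 40.1 CPM in mural cells and 12.2 to 23.3 CPM in Msln+ cells (log2 difference 4.88 ± 0.19, edgeR adjusted p = 1.16e-15). Mmp11 was at 22.3, 24.8, 19.3 and 24.1 CPM in fibroblasts and 17.6, 17.5, 15.3 and 32.4 CPM in epithelial cells, with overlapping ranges, and its exons overlap Chchd10 on the other strand. Mmp13, which cuts fibrillar collagen, was called higher in immune cells (log2 difference 3.33 ± 0.58, edgeR adjusted p = 2.16e-05) and in fibroblasts (log2 difference 2.03 ± 0.62, edgeR adjusted p = 0.0075), at no more than 4.82 CPM in any lineage and mouse.

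The membrane-type MMPs differed in their leading lineage. Mmp14, which cuts collagen at the cell surface and activates the Mmp2 precursor, was found in all 6 lineages at means of 33.2 (immune) to 272 CPM (fibroblast). In fibroblasts it was at 237, 207, 323 and 321 CPM, above the mural cells (109, 119.9, 179 and 181 CPM) of the same mouse in 4 of 4 mice. Mmp15 was at 99.6, 99.8, 111 and 99.3 CPM in epithelial cells, followed by endothelial cells at 46.3 to 66.7 CPM.

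Mmp17 was at 26.5, 23.7, 24.1 and 26.1 CPM in mural cells, against 5.97 to 8.12 CPM in Msln+ cells. Mmp16 was at 5.97 to 25.2 CPM in Msln+ cells and 9.26 to 11.8 CPM in mural cells, which overlap. Among the remaining MMPs, Mmp28 was at 39.1, 32.9, 25.7 and 36.1 CPM in endothelial cells, against 1.10 to 2.44 CPM in mural cells. Mmp23 was higher in mural cells (75.5, 61.4, 84.8 and 84.0 CPM) than in fibroblasts (57.1, 34.9, 63.7 and 64.0 CPM) of the same mouse in 4 of 4 mice.

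**Figure D3:**
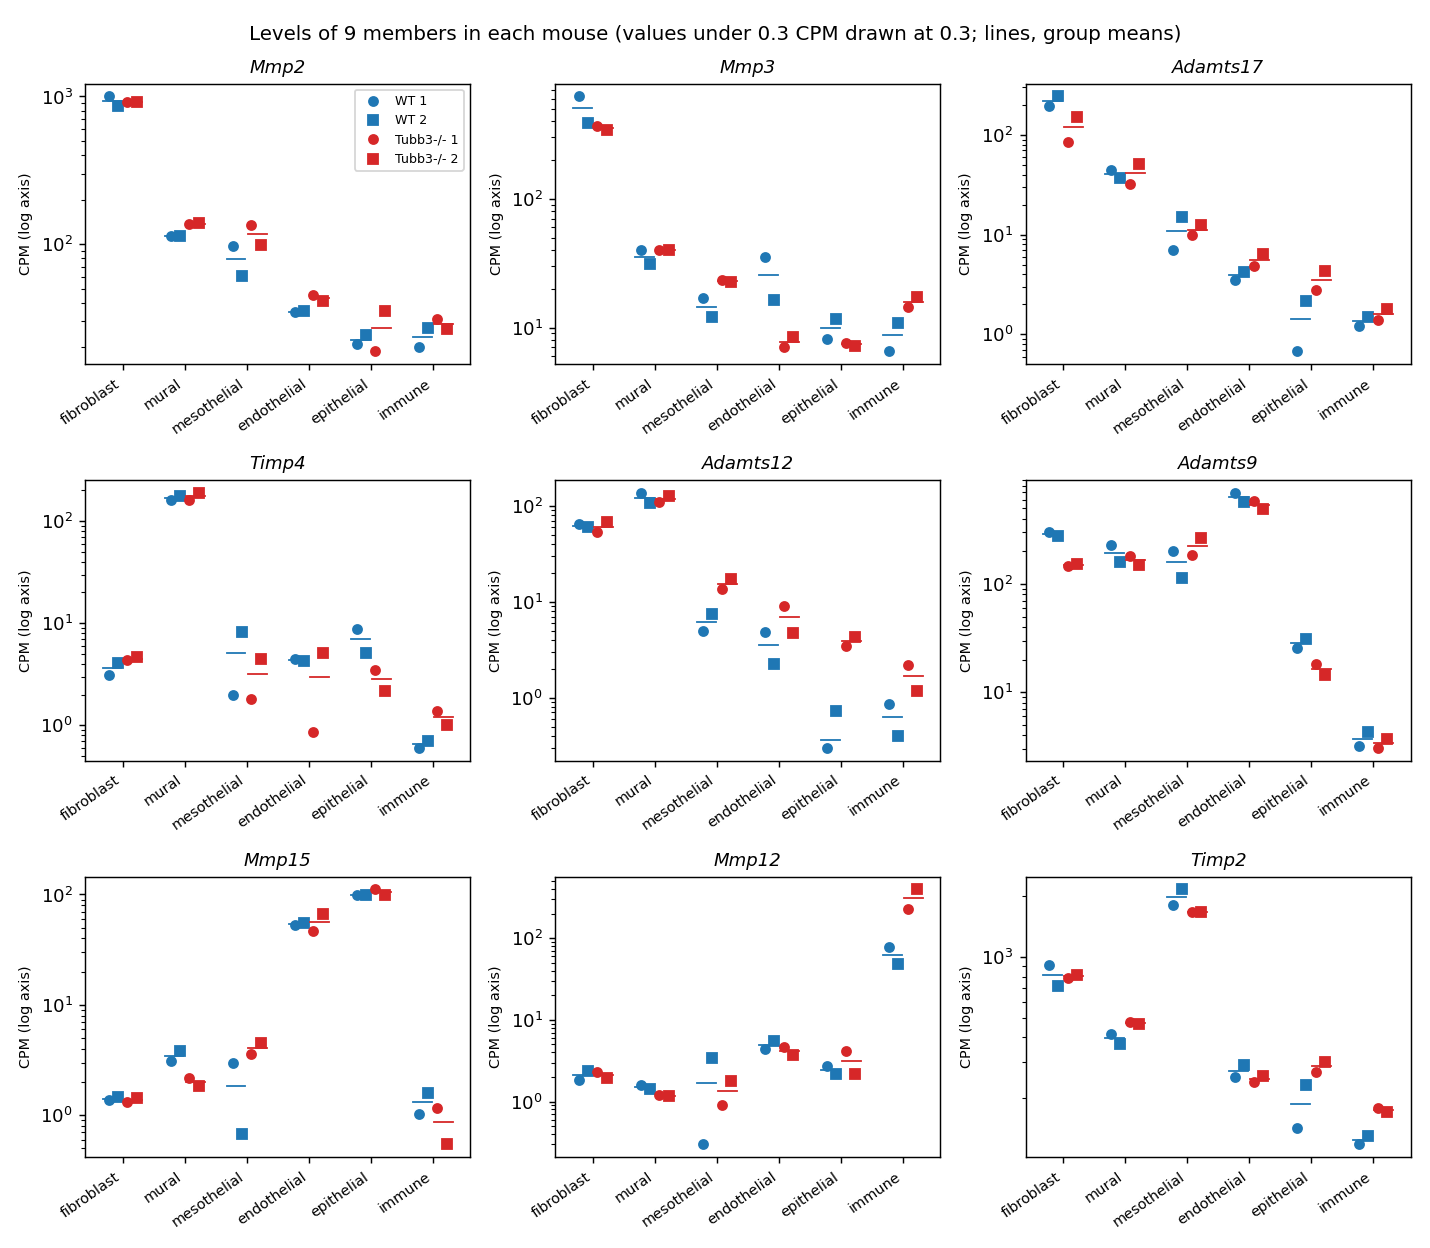
Level (CPM, log axis) of 9 genes in the 6 lineages, with a point for each of the 2 WT and 2 Tubb3-/- mice and a line at each genotype's mean. The leading lineage differs from gene to gene, such as fibroblasts for Mmp2 (867 to 1002 CPM), mural cells for Timp4 (160.4 to 189 CPM) and endothelial cells for Adamts9 (488 to 691 CPM).

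The proteoglycan-cutting ADAMTS genes were carried by several lineages. Adamts1 was at 874, 809, 753 and 775 CPM in mural cells, 567 to 703 CPM in endothelial cells and 383 to 437 CPM in fibroblasts, with no overlap between these. Adamts9 led in endothelial cells (691, 571, 578 and 488 CPM, log2 difference 3.20 ± 0.14, edgeR adjusted p = 1.25e-14), while fibroblasts (146 to 303 CPM), Msln+ cells (114 to 268 CPM) and mural cells (151 to 227 CPM) overlapped each other. Adamts4, an aggrecanase, was shared by mural cells (179.8, 122, 110.2 and 93.7 CPM) and fibroblasts (189.8, 100.0, 76.9 and 64.5 CPM).

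Adamts15 was also shared, at 112 to 152 CPM in mural cells and 122 to 158 CPM in fibroblasts. Adamts8 was at 63.7 to 71.8 CPM in mural cells, just above 43.9 to 63.6 CPM in fibroblasts. Adamts5, an aggrecanase, was at 108 to 185 CPM in Msln+ cells, 99.1 to 118 CPM in mural cells and 55.3 to 70.0 CPM in fibroblasts, of which the first and second overlap. Adamts20 was at 32.5, 6.55, 6.26 and 19.4 CPM in epithelial cells, which rests on 93 UMIs, and its mean in fibroblasts, the next lineage, was 0.425 CPM.

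Adamts2, which removes the N-terminal propeptide of fibrillar procollagens, was at 552, 446, 517 and 563 CPM in fibroblasts (log2 difference 4.13 ± 0.10, edgeR adjusted p = 3.61e-19) and 134 to 201 CPM in mural cells. Adamts3 of the same group was at 14.3 to 22.5 CPM in fibroblasts and 8.06 to 31.1 CPM in Msln+ cells, which overlap. Adamts12, which cuts cartilage oligomeric matrix protein, was higher in mural cells (137, 107, 111 and 126 CPM) than in fibroblasts (64.0, 60.1, 53.0 and 67.5 CPM), without overlap.

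Adamts17 was at 196, 244, 85.4 and 152 CPM in fibroblasts and at 32.4 to 50.6 CPM in mural cells (log2 difference 4.89 ± 0.14, edgeR adjusted p = 7.09e-18). Adamts10, which binds fibrillin, was at 85.8 to 123 CPM in fibroblasts and 87.7 to 121 CPM in mural cells, which overlap. Adamts19 was at 8.24 to 13.9 CPM in fibroblasts.

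The inhibitors differed from each other in distribution. Timp4 was found in mural cells at 160.4, 176, 163 and 189 CPM (172 ± 13.3), against 2.16 to 8.80 CPM in epithelial cells, the next lineage (log2 difference 5.86 ± 0.15, edgeR adjusted p = 5.46e-19), and its exons overlap Syn2 on the other strand. Timp1 was at 379, 174, 733 and 553 CPM in fibroblasts, 185, 164, 625 and 356 CPM in Msln+ cells and 153, 69.5, 261 and 244 CPM in mural cells. When cells were assigned by their leading marker list, which keeps cells with markers of several lineages, the mean of Timp1 in mural cells went from 182 to 90.9 CPM and that in fibroblasts from 459.7 to 528 CPM.

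Timp2 led in Msln+ cells (1814, 2168, 1671 and 1677 CPM, log2 difference 2.38 ± 0.11, edgeR adjusted p = 6.15e-14) over fibroblasts (721 to 909.6 CPM). Timp3, which stays bound to the matrix, was at 1027 to 1129 CPM in fibroblasts, 827 to 954 CPM in mural cells and 782 to 901 CPM in endothelial cells, the last pair overlapping, and its exons overlap Syn3 on the other strand. Immune cells had 29.0 to 42.5 CPM of Timp3, which is 3.37% of the fibroblast level.

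The 13 genes under 10 CPM had leading means of 0.0919 (Mmp1b) to 9.25 CPM (Adamts14). Adamts13, the protease of von Willebrand factor, was at 0.287 to 1.01 CPM in endothelial cells on 52 UMIs over all cells. In fibroblasts Adamts7 was at 2.93 to 5.97 CPM and Mmp27 at 1.84 to 3.81 CPM, neither overlapping the next lineage. Adamts18 was at a mean of 2.33 CPM in endothelial cells on 49 UMIs over all cells, and Mmp7, Mmp20, Mmp1b and Mmp21 had 12 to 22 UMIs each.

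Fibroblasts were divided by pairs of genes, both of which a cell had to carry. Cells that carried several full pairs (402 cells) were dropped from the classes. Cells with Cthrc1 and Postn, markers of matrix-producing fibroblasts in fibrosis, numbered 233 (14 to 107 per mouse), and cells with Npnt and Inmt, markers of alveolar fibroblasts, numbered 2489 (579 to 740 per mouse). The pairs Saa3 and Lcn2 (15 cells) and Pi16 and Dpp4 (12 cells) were too few to be tested. Of 30 members tested, Timp1, Adamts6, Adamts12 and Mmp23 were higher in the Cthrc1+ Postn+ cells (4, where 3.82% of all genes were higher) and Adamts17, Adamts15, Adamts9, Mmp3 and Adamts8 were lower (5, where 4.48% were lower).

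Timp1 was at 836, 344, 1550 and 931 CPM in Cthrc1+ Postn+ cells and at 266, 142, 418 and 402 CPM in Npnt+ Inmt+ cells, higher in 4 of 4 mice (log2 difference 1.58 ± 0.13, edgeR adjusted p = 8.85e-06). Adamts17 was at 20.2, 53.6, 22.2 and 29.9 CPM against 249, 266, 121 and 197 CPM (log2 difference -2.66 ± 0.18, edgeR adjusted p = 1.94e-06). Mmp3 was at 284, 153, 158 and 108 CPM against 617, 385, 404 and 344 CPM (log2 difference -1.31 ± 0.12, edgeR adjusted p = 9.77e-06). The enzymes Adamts17 and Mmp3 were lower in the Cthrc1+ Postn+ cells in 4 of 4 mice.

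Mmp14 was at 534, 413, 466 and 439 CPM in Cthrc1+ Postn+ cells against 214, 189, 278 and 289 CPM, a difference that missed the 2-fold limit (log2 difference 0.99 ± 0.12, edgeR adjusted p = 0.0001). Adamts6 was at 65.1, 138, 42.5 and 49.2 CPM against 15.8, 17.6, 15.9 and 23.4 CPM (log2 difference 1.81 ± 0.24, edgeR adjusted p = 0.000189), and Adamts12 at 217, 84.2, 96.1 and 92.1 CPM against 38.7 to 57.8 CPM. Adamts15 was at 24.8 to 59.1 CPM against 146 to 181 CPM, and Adamts8 at 15.3 to 26.1 CPM against 51.7 to 69.5 CPM.

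When fibroblasts were assigned to the class whose marker list led, all 4 classes could be compared. The class led by Cthrc1 and Postn had 7 members higher and 6 lower (5% and 6.97% of all genes), among them Timp1, Adamts6 and Adamts12 higher and Adamts17, Adamts15 and Mmp3 lower as in the pair rule. In the class led by Saa3 and Lcn2, 2 members were higher and 1 lower (1.96% and 0.793% of all genes). The higher ones were Mmp8 (log2 difference 3.25 ± 0.37, edgeR adjusted p = 1.57e-05) and Timp1 (log2 difference 1.11 ± 0.12, edgeR adjusted p = 1.26e-05). The Mmp8 values of this class were 40.5, 0, 35.2 and 11.1 CPM, from 50, 15, 144 and 89 cells. Mmp8 was also called higher in the class led by Npnt and Inmt (log2 difference 1.04, edgeR adjusted p = 0.0211). That class had 4 members higher and 7 lower (2.98% and 3.94% of all genes). The class led by Pi16 and Dpp4, markers of adventitial fibroblasts, had 6 members higher and 4 lower (6.75% and 4.8% of all genes). Among the higher ones was Adamts5 (136, 204, 127 and 155 CPM, against means of 47.5 to 70.6 CPM in the other classes).

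Mural cells comprise pericytes and smooth muscle cells, for which Higd1b and Myh11 were taken as markers. Of the 4541 cells, 4038 carried Myh11 alone, 461 both and 42 Higd1b alone (5 to 16 per mouse). Among cells led by the mural lists, 97.9% had a UMI of Myh11 and 12.3% of Higd1b. Cells with Myh11 alone can thus include pericytes, and this split compares detected markers rather than cell types. The Higd1b cells had a median of 6212.5 UMIs and the Myh11 cells 10835.5. Timp4 had 0 UMIs of 269361 in the Higd1b cells and 8689 UMIs in the Myh11 cells (186 CPM), which with a limit of 3 counts over the group makes it at least 16.7-fold higher in the latter. Adamts15 and Adamts8 had 1 UMI each in the Higd1b cells, against 141 and 72.0 CPM in the summed Myh11 cells. Of 25 members tested, 1 (Adamts3) was higher and 12 were lower in the Higd1b cells, where 4.35% and 9.63% of all genes were, and without WT 2 the calls in both directions went from 13 to 7.

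Because these cells were few, the split was repeated with the mural cells in which the pericyte list stood above the muscle list (319 to 414 per mouse), against the others (724 to 1325 per mouse), and 3 members were higher and 4 lower of 28 (8.21% and 5.6% of all genes). Timp4 was at 80.6, 87.2, 56.9 and 73.6 CPM in the pericyte-led and 195, 229, 227 and 281 CPM in the muscle-led cells (log2 difference -1.85 ± 0.12, edgeR adjusted p = 7.89e-07). Adamts4 was higher in the pericyte-led cells, at 399, 213, 238 and 181 against 119.5, 77.7, 75.0 and 59.0 CPM (log2 difference 1.43 ± 0.06, edgeR adjusted p = 6.73e-08), as were Adamts10 and Adamts14. The calls shared by both splits were Timp4 and Mmp23, and 3 members called lower in the Higd1b cells had the opposite sign in this split. They were Adamts2 (log2 difference -1.33 in Higd1b and 0.70 in pericyte-led cells, edgeR adjusted p of 0.00363 and 5.18e-05), Adamts9 (-1.37 and 0.54, edgeR adjusted p of 0.00218 and 5.03e-05) and Adamts17, which had 0 UMIs in the Higd1b cells and a log2 difference of 0.27 in the pericyte-led cells (edgeR adjusted p = 0.0666).

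Other genes of the pathway were taken from lists of 22 regulators (activating proteases, other inhibitors, receptors that take up the enzymes) and 19 matrix substrates. In fibroblasts 13 of 16 substrates tested were higher and 1 lower, with a median log2 difference of 3.18, and 12 of 22 regulators were higher and 2 lower (15.8% and 12.3% of all genes). In mural cells 10 substrates were higher and 0 lower by edgeR (14 of the 16 stood at an unadjusted p under 0.05), and 13 regulators were higher and 2 lower (14.7% and 13% of all genes). In immune cells 12 substrates were lower and 0 higher by edgeR (14 of the 16 stood at an unadjusted p under 0.05), and 5 regulators were higher and 15 lower (20% and 23.4% of all genes higher and lower). Reck, a membrane-bound MMP inhibitor, had log2 differences of 1.81 in fibroblasts, 2.07 in mural cells and -2.77 in immune cells. Plaur, the urokinase receptor, was higher in immune cells by 2.89 on the log2 scale.

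The loss of Tubb3 was examined by setting the 2 Tubb3-/- mice against the 2 WT mice in each lineage. The 1 member called by edgeR was Timp1 in Msln+ cells, at 185 and 164 against 625 and 356 CPM (log2 difference 1.50 ± 0.26, edgeR adjusted p = 0.0414), of 18 tested there, where 0.325% of all genes were higher and 0.0314% lower. In the same sums the 5 fibroblast genes stood at 5325 and 5744 CPM in WT and 8505 and 7399 CPM in Tubb3-/- mice, and the mesothelial markers at 2454 and 2971 against 1988 and 1982 CPM. Their part in the Timp1 difference was not tested. The call rested on 324 cells and was lost without WT 2 (log2 1.42, edgeR adjusted p = 0.0579) and with cells assigned by leading list (log2 0.78, edgeR adjusted p = 0.274), and the adjusted p ran from 1.23e-14 to 0.933 over 15 alternatives.

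In the other 5 lineages edgeR called 0 members, and 0% of all genes, at an adjusted p under 0.05. At an unadjusted p under 0.05 stood 7 of 29 in immune cells (8.37%), 4 of 25 in endothelial cells (13.6%), 4 of 15 in epithelial cells (4.26%), 6 of 18 in Msln+ cells (8.58%), 9 of 31 in mural cells (11.1%) and 10 of 35 in fibroblasts (18.1%), with the share of all genes in parentheses. DESeq2 called Mmp12 and Mmp14 higher in immune cells (2 members, where 0.27% and 0.192% of all genes were higher and lower) and Mmp14 higher and Mmp3 lower in endothelial cells (0.589% and 0.4%). It called 0 members in epithelial cells (0.0288% and 0%), Timp1 in Msln+ cells (0.335% and 0.0419%) and Mmp14 in mural cells (0.622% and 0.49%). In fibroblasts it called 6, with Mmp8, Mmp10 and Mmp14 higher and Adamts4, Adamts9 and Adamts17 lower (1.01% and 2.37%). Mmp10, a stromelysin, was there at 0.884 and 0.0732 against 5.18 and 2.06 CPM (log2 difference 2.87 ± 0.84, edgeR adjusted p = 0.185), and Mmp3 in endothelial cells at 35.1 and 16.3 against 7.03 and 8.49 CPM (log2 difference -1.66 ± 0.37, edgeR adjusted p = 0.145). With 2 mice a group, p-values measure only the spread between these mice.

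For Mmp14 both Tubb3-/- mice exceeded both WT mice in 6 of 6 lineages. The values were 237 and 207 against 323 and 321 CPM in fibroblasts (log2 difference 0.53 ± 0.13, edgeR adjusted p = 0.14) and 109 and 119.9 against 179 and 181 CPM in mural cells (log2 difference 0.65 ± 0.09, edgeR adjusted p = 0.146). Immune cells had 26.3 and 15.1 against 51.2 and 40.4 CPM (log2 difference 1.15 ± 0.28, edgeR adjusted p = 0.484) and endothelial cells 48.0 and 27.9 against 75.7 and 70.5 CPM (log2 difference 1.01 ± 0.22, edgeR adjusted p = 0.144). None of these passed the test in edgeR. Within a single lineage this order held for 18.9% to 27.9% of all genes at 10 CPM or more, and the 6 lineages share their mice. The share of all genes that held it in several lineages at once was not taken.

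Timp1 showed the same order in 5 lineages and overlapped in endothelial cells (45.7 and 21.4 against 74.9 and 27.3 CPM). In fibroblasts the values were 379 and 174 against 733 and 553 CPM (log2 difference 1.20 ± 0.40, edgeR adjusted p = 0.214), and in mural cells 153 and 69.5 against 261 and 244 CPM (log2 difference 1.15 ± 0.37, edgeR adjusted p = 0.339). WT 2 had the lowest Timp1 in 6 of 6 lineages. Without WT 1, where the lone WT mouse is assumed to vary like the others, edgeR called 7 members in fibroblasts, 7 in immune cells and 5 in mural cells (6.93%, 3.39% and 3.29% of all genes), and without WT 2 it called 3 in each (3.58%, 1.1% and 2.66% of all genes).

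The 5 fibroblast genes summed higher in both Tubb3-/- mice in all 6 lineages, and their part in the Timp1 and Mmp14 differences was not tested. Outside the Msln+ and mural cells they stood at 254 and 373 against 541 and 393 CPM in immune cells, 599 and 588 against 699 and 716 CPM in endothelial cells, 244 and 307 against 344 and 607 CPM in epithelial cells and 14167 and 9357 against 16707 and 16237 CPM in fibroblasts. As a share of its fibroblast level, Timp1 stood at 4.34% in immune and 3.34% in epithelial cells, inside the ranges of the 5 genes there (2.53% to 5.17% and 2.18% to 4.87%). Mmp14 stood at 12.2% in immune, 20.4% in endothelial and 17.7% in epithelial cells, above the ranges of the 5 genes (up to 5.17%, 10.7% and 4.87%).

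**Figure D4:**
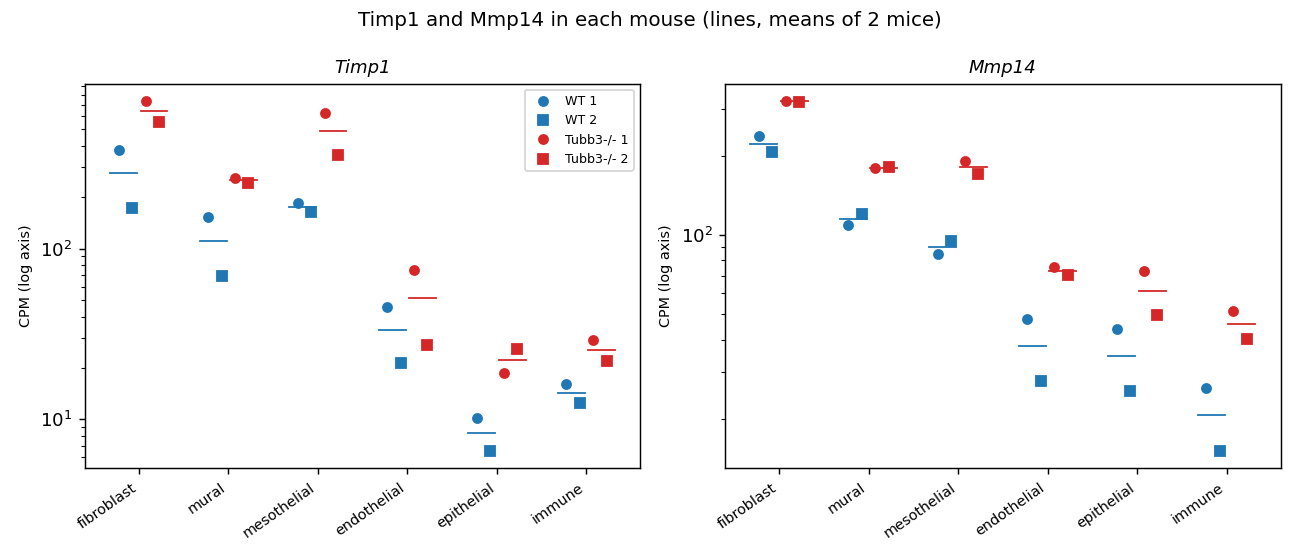
Level (CPM, log axis) of Timp1 and Mmp14 in the 6 lineages, with a point for each WT and each Tubb3-/- mouse and a line at each genotype's mean. Both Tubb3-/- points lie above both WT points in all 6 lineages for Mmp14 and in all but the endothelial cells for Timp1, where WT 2 is the lowest point in each lineage (174 CPM in fibroblasts).

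In sums over a lineage, fewer cells of a type and less RNA per cell cannot be told apart. The share of fibroblasts in the Cthrc1+ Postn+ class was 3.69% and 1.57% in WT and 10.1% and 8.19% in Tubb3-/- mice. Its part in the differences above was not tested. A cell enters this class with a UMI of both genes and without both genes of another pair. Fibroblasts dropped for several pairs were 7.60% and 6.06% in WT and 14.9% and 12.8% in Tubb3-/- mice. Fibroblasts had a median of 16345 and 14670 UMIs in WT and 19221 and 18336 in Tubb3-/- mice, whose part in these shares was not tested. By leading list the class held 166 of 2139 and 76 of 1838 WT fibroblasts. In Tubb3-/- mice it held 638 of 2987 and 417 of 2628. Within the Npnt+ Inmt+ cells, Timp1 was at 266 and 142 against 418 and 402 CPM and Mmp14 at 214 and 189 against 278 and 289 CPM, without overlap. Within the Cthrc1+ Postn+ cells Timp1 was at 836 and 344 against 1550 and 931 CPM, without overlap, and Mmp14 at 534 and 413 against 466 and 439 CPM, with overlap.

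Several enzymes were lower in both Tubb3-/- mice in fibroblasts, although none passed the test in edgeR. Adamts9 was at 303 and 277 against 146 and 152 CPM (log2 difference -0.97 ± 0.11, edgeR adjusted p = 0.0773), and within Npnt+ Inmt+ cells at 359 and 292 against 186 and 186 CPM. Adamts4 was at 189.8 and 100.0 against 76.9 and 64.5 CPM, Adamts17 at 196 and 244 against 85.4 and 152 CPM and Mmp3 at 625 and 386 against 367 and 343 CPM, with edgeR adjusted p of 0.198, 0.18 and 0.342. In all, 7 of the 22 members at 10 CPM or more in fibroblasts lay lower in both Tubb3-/- mice and 4 higher, where 23.8% and 27.9% of all genes did. Mmp8 in fibroblasts was at 4.42 and 3.0 against 11.8 and 9.03 CPM (log2 difference 1.48 ± 0.27, edgeR adjusted p = 0.104).

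In mural cells 7 of 21 members at 10 CPM or more lay higher in both Tubb3-/- mice and 3 lower (25.3% and 17.6% of all genes). Adamts2 was at 143 and 134 against 189 and 201 CPM (log2 difference 0.49 ± 0.11, edgeR adjusted p = 0.216) and Adamts6 at 40.7 and 39.8 against 54.2 and 63.9 CPM (log2 difference 0.54 ± 0.11, edgeR adjusted p = 0.19), while Adamts4 was at 179.8 and 122 against 110.2 and 93.7 CPM (log2 difference -0.58 ± 0.23, edgeR adjusted p = 0.43). Timp4, which led in these cells, was at 160.4 and 176 against 163 and 189 CPM, which overlap. The 5 fibroblast genes summed to 4418 and 3924 CPM in WT and 7222 and 6895 CPM in Tubb3-/- mural cells, and their part in these differences was not tested.

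Among immune cells Mmp12 was at 77.3 and 47.7 against 226 and 395 CPM (log2 difference 2.32 ± 0.35, edgeR adjusted p = 0.25). The order held within the Csf1r+ cells, at 227 and 93.4 against 518 and 1269 CPM, and within the Siglecf+ or Marco+ cells, at 134 and 91.5 against 259 and 267 CPM. Csf1r+ cells were 16.6% and 19.2% of the WT and 16.3% and 22.8% of the Tubb3-/- immune cells. Timp2 was at 117 and 128 against 178 and 170.1 CPM and Adamts14 at 12.4 and 12.9 against 6.30 and 5.36 CPM, with edgeR adjusted p of 0.29 and 0.25. Mmp9 (21.8 and 40.5 against 13.7 and 22.3 CPM) and Mmp19 (212 and 263 against 182 and 255 CPM) overlapped. In all, 5 of 15 members lay higher and 1 lower in immune cells (18.9% and 22.8% of all genes), 2 of 14 higher and 2 lower in endothelial cells (23% and 23.9%), 4 of 13 and 1 in epithelial cells (21.8% and 12.5%) and 9 of 18 and 2 in Msln+ cells (19.1% and 19%).

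**Figure D5:**
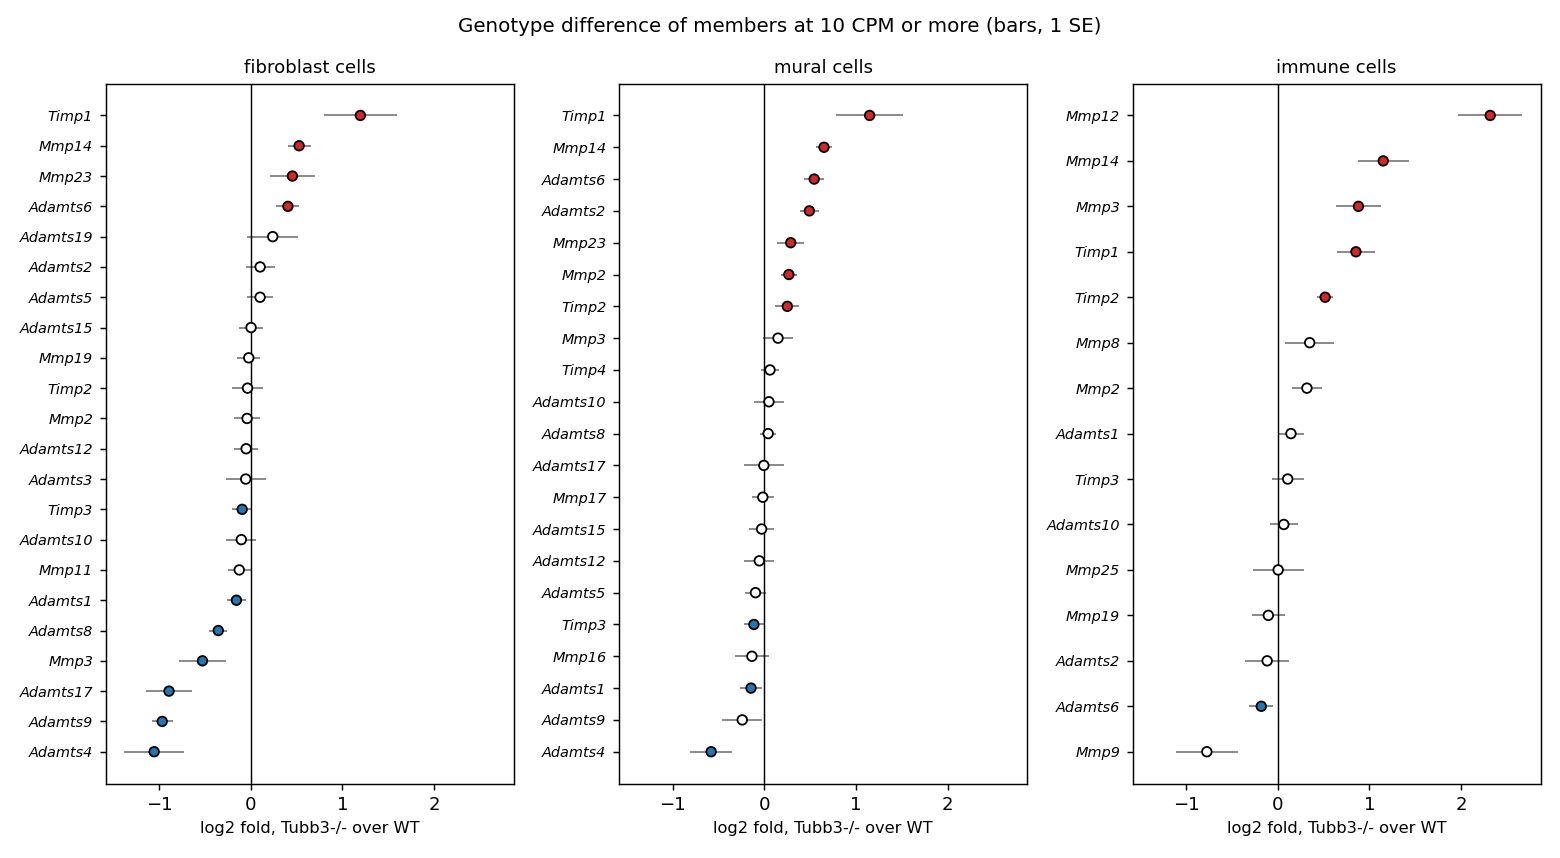
Log2 difference of Tubb3-/- from WT mice (edgeR) for the members at 10 CPM or more in fibroblasts, mural cells and immune cells. Bars are a standard error derived from the difference and the edgeR F statistic. Red points have both Tubb3-/- mice above both WT mice, blue points below, and white points overlap, such as Adamts4 in fibroblasts at -1.06 (blue) and Mmp12 in immune cells at 2.32 (red).

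In the whole-cell libraries, summed over all their cells, edgeR called 0 of 37 members (0% of all genes), 15 stood at an unadjusted p under 0.05 (15.9% of all genes), and DESeq2 called 4, with Mmp13, Mmp14 and Timp1 higher and Mmp9 lower (1.82% and 1.92% of all genes). Mmp9 was at 8.93 and 17.5 against 4.28 and 6.27 CPM, and the Cxcr2+ cells, which carry it, were 6.72% and 8.32% of the immune cells in WT and 5.33% and 4.65% in Tubb3-/- mice over both kinds of library, whose part in the Mmp9 difference was not tested. Mmp13 was at 0.475 and 0.441 against 3.50 and 1.34 CPM, Timp1 at 95.3 and 59.2 against 289 and 158 CPM and Mmp14 at 78.8 and 65.2 against 134 and 124 CPM. The log2 difference was 1.55 ± 0.40 for Timp1 and 0.85 ± 0.13 for Mmp14, with edgeR adjusted p of 0.207 and 0.141. Whether the genotype difference itself differed between lineages was tested with an interaction term, for fibroblasts against mural, endothelial and immune cells. edgeR called 0 of 36 members in each, where 0.00611% to 0.0428% of all genes were called in the directions that had calls, and 2, 7 and 10 members stood at an unadjusted p under 0.05 (3.49%, 6.39% and 7.58% of all genes). DESeq2 called 0, 0 and 1 (0.122% higher and 0.544% lower of all genes in the last). The 1 was Mmp12, whose genotype difference was -2.25 ± 0.44 in fibroblasts relative to immune cells on the log2 scale (edgeR adjusted p = 0.0666, DESeq2 adjusted p = 0.0309). In fibroblasts Mmp12 was near the floor, at means of 2.09 CPM in WT and 2.13 CPM in Tubb3-/- mice. This is 1.13% of its immune level, where 5 immune marker genes stood at 0.562% to 0.791% of theirs.

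Of the other genes of the pathway, 2 of 14 substrates and 1 of 19 regulators were called by edgeR between the genotypes in Msln+ cells (0.325% of all genes higher and 0.0314% lower). They were Col1a1 and Col1a2, the chains of type I collagen, and Serpine2, an inhibitor of serine proteases, at log2 differences of 1.54, 1.15 and 2.40 (edgeR adjusted p of 0.0327, 0.0264 and 0.0207). Col1a1 and Col1a2 belong to the 5 fibroblast genes whose sums are given with Timp1. In the other 5 lineages and the whole-cell libraries edgeR called 0 of either list. At an unadjusted p under 0.05 stood 8 of 15 substrates and 6 of 21 regulators in fibroblasts (18.1% of all genes), 9 of 15 and 4 of 21 in mural cells (11.1%), 10 of 15 and 4 of 19 in immune cells (8.37%) and 7 of 15 and 6 of 22 in endothelial cells (13.6%). The counts were 3 of 12 and 3 of 16 in epithelial cells (4.26%), 7 of 14 and 7 of 19 in Msln+ cells (8.58%) and 10 of 17 and 7 of 22 in the whole-cell libraries (15.9%). Of the substrates, Col1a1, Col1a2, Col3a1 and Dcn are also among the 5 fibroblast genes.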

How the data were processed

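Single-cell RNA-seq (Chromium Next GEM Single Cell 3′ v3.1) was made from the cells of 4 mice in 2 pools, each mouse marked by a sample tag. The tags split the pools into 8 libraries, and the tag libraries were not analysed here. The deposited matrices hold raw UMI counts per gene and cell, which the authors made with Cell Ranger 7.1.0 on mm10. The counting of strand is not given in the sources used here. Cells with 200 to 7500 genes and at most 15% mitochondrial UMIs were kept. Doublets were not removed in the main results, and their removal (5% of cells per pool by a simulated doublet score) was tried as an alternative.

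Counts were summed per mouse and lineage over both libraries, for sums of at least 10 cells (5 in the mural split). Sums were tested with edgeR 4.0.16 (quasi-likelihood test, TMM, filterByExpr, Benjamini-Hochberg over all genes tested, threshold 0.05) in R 4.3.3 and with DESeq2 1.42.0 as an alternative. Comparisons between lineages or classes had the mouse as a term and required 2-fold. The fibroblast classes with Saa3 and Lcn2 or Pi16 and Dpp4 had too few cells under the pair rule, so that fit compared the other pair of classes, and the assignment by leading marker list (ahead by at least 2 times) was added after the data were seen. Lineage sums held 1004521 to 21233601 UMIs per mouse, and limits from counts cover counting error only. The scripts were tested on simulated data with known changes. Members and lists were chosen with earlier results of these data known, and per-mouse values or ranges are given mainly for members with a mean of at least 10 CPM in a lineage or a call between genotypes.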

Additional observations from a re-analysis of the deposited data

Results flagged for a closer look

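For some members both Tubb3-/- mice exceeded both WT mice in a lineage and fell short of both in another, at 10 CPM or more in each. In a single lineage each order held for 12.5% to 27.9% of all genes at that level. How often all genes show opposite orders between lineages was not counted. Whether these differences between lineages hold was not tested in this form, the lineages share their mice, and values are given as WT against Tubb3-/- mice with the ratio of the Tubb3-/- mean to the WT mean. Mmp3 lay higher in immune cells (6.54 and 10.9 against 14.4 and 17.2 CPM, ratio 1.81) and Msln+ cells (16.9 and 12.2 against 23.3 and 22.5 CPM, ratio 1.57) and lower in endothelial cells (35.1 and 16.3 against 7.03 and 8.49 CPM, ratio 0.302) and fibroblasts (625 and 386 against 367 and 343 CPM, ratio 0.702). Timp3 lay higher in Msln+ cells (462 and 357 against 511 and 544 CPM, ratio 1.29) and lower in mural cells (906 and 954 against 827 and 895 CPM, ratio 0.926) and fibroblasts (1123 and 1129 against 1027 and 1090 CPM, ratio 0.940). Adamts2 lay higher in Msln+ cells (130.4 and 136 against 152 and 145 CPM, ratio 1.12) and mural cells (143 and 134 against 189 and 201 CPM, ratio 1.41) and lower in endothelial cells (14.7 and 14.1 against 11.5 and 11.4 CPM, ratio 0.797). Timp2 lay higher in immune cells (117 and 128 against 178 and 170.1 CPM, ratio 1.41), epithelial cells (142 and 232 against 269.8 and 302 CPM, ratio 1.53), mural cells (416 and 372 against 474 and 467 CPM, ratio 1.20) and lower in Msln+ cells (1814 and 2168 against 1671 and 1677 CPM, ratio 0.841). Adamts6 lay higher in mural cells (40.7 and 39.8 against 54.2 and 63.9 CPM, ratio 1.47) and lower in immune cells (71.1 and 59.0 against 58.7 and 55.1 CPM, ratio 0.875). Adamts1 lay higher in Msln+ cells (112 and 95.4 against 162 and 170.3 CPM, ratio 1.60) and lower in mural cells (874 and 809 against 753 and 775 CPM, ratio 0.908) and fibroblasts (437 and 427 against 383 and 395 CPM, ratio 0.900). The 5 fibroblast genes summed higher in both Tubb3-/- mice in each of these lineages, at 254 and 373 against 541 and 393 CPM in immune cells, 599 and 588 against 699 and 716 CPM in endothelial cells, 244 and 307 against 344 and 607 CPM in epithelial cells, 5325 and 5744 against 8505 and 7399 CPM in Msln+ cells, 4418 and 3924 against 7222 and 6895 CPM in mural cells and 14167 and 9357 against 16707 and 16237 CPM in fibroblasts. Mmp3 stood at 2.85% of its fibroblast level in immune and 3.89% in endothelial cells, where the 5 genes stood at 2.53% to 5.17% and 3.91% to 10.7% of theirs. The part of these genes in the differences was not tested.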

How the results depend on the processing

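Counts of members called are given here. Between genotypes, DESeq2 raised them from 0 to 2 in immune and in endothelial cells, 1 in mural cells, 6 in fibroblasts and 4 in the whole-cell libraries. The share of all genes called was then 0.461%, 0.989%, 1.11%, 3.39% and 3.74% in that order. Without the filter on low counts they went from 0 to 5 in immune and in endothelial cells and 6 in mural cells, and from 1 to 2 in mesothelial (Msln+) cells. Of all genes, 0.643%, 4.34%, 3.67% and 1.9% were called there in that order. The 1 call in Msln+ cells was lost without TMM, at a mitochondrial limit of 10%, in the whole-cell or the enriched libraries alone and with the leading list. Each of these gave 0, beside 0% to 0.224% of all genes. Without TMM fibroblasts had 1 (0.974% of all genes). Leaving out each mouse gave 0 to 7 in immune cells, 0 to 1 in endothelial cells, 0 to 0 in epithelial cells, 0 to 3 in Msln+ cells, 0 to 5 in mural cells, 0 to 7 in fibroblasts and 0 to 3 in the whole-cell libraries. Calls over all genes rose as well, to 6.93% in fibroblasts without WT 1, 4.34% in endothelial cells without the filter and 3.74% in the whole-cell libraries with DESeq2. The cause of these changes was not tested.

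The labels do not say that mice with the same replicate number share anything, and 2 pairs are too few to settle a pairing. Same-numbered mice deviated together with correlations of 0.0734 (epithelial) to 0.293 (fibroblast). With the replicate number as a block, 8 members were called in fibroblasts, 5 in mural cells and 3 in Msln+ cells, beside 10.6%, 3.68% and 3.06% of all genes.

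Between lineages, the enriched libraries alone gave 16 calls in place of 33 in immune cells and 12 in place of 26 in endothelial cells, from fewer cells. Shares of all genes are not given for the alternatives of this paragraph, so its counts cannot set the members apart from all genes. The mural split had 13 calls, 8 with DESeq2, 7 with the leading list and 7 to 12 without each mouse, and the fibroblast classes had 9, 14 without the filter and 9 to 13 without each mouse. Interaction calls went from 0 to 2 (endothelial) and 3 (immune) without the filter, to 1 (endothelial) and 2 (immune) with the leading list, to 1 (immune) with DESeq2 or 2 UMIs of the marker, and were 0 to 1 without each mouse for mural and immune cells.

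Directions turned for Timp1 between genotypes in endothelial cells (log2 -0.24 to 1.30 without each mouse, negative without Tubb3-/- 1, and -0.073 with the leading list), for Adamts4 in the mural split (-0.44 with DESeq2, -0.55 to 0.99 without each mouse, negative without WT 1) and for Adamts10 there (-0.028 without the filter, -0.13 to 0.14 without each mouse, negative without Tubb3-/- 2). With the leading list they also turned in the mural split for Adamts2 (0.70), Adamts9 (0.54) and Adamts17 (0.27), each called lower in the Higd1b cells. Members without a call in the Higd1b split turned there as well, namely Mmp14 (-0.26 to 0.635), Adamts12 (-0.68 to 0.44), Mmp19 (-1.37 to 0.24) and Mmp3 (-1.19 to 0.10). In the Cthrc1+ Postn+ class the sign turned for Adamts5 (0.86 to -0.15), Timp2 (0.41 to -0.10), Mmp8 (0.13 to -0.52) and Mmp17 (-0.42 to 0.17). In the Npnt+ Inmt+ class it turned for Adamts4, Mmp8, Mmp17 and Mmp27. Of the values of single members under alternatives, 886 kept their direction and side of the threshold, 63 newly passed it and 20 lost it. Depth limits the Msln+ and epithelial sums most, which rest on 324 and 321 cells.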
